A study of Mus musculus with 23 samples.

Results

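Mitochondrial chaperones and proteases keep the proteins of the organelle folded and remove those that fail to fold. The 10 genes described here were chosen by symbol from the 37310 genes of the count files. Of these, 4 encode chaperones: Hspd1 (Hsp60) and Hspe1 (Hsp10), which together form the folding chamber of the matrix, Hspa9 (mortalin), the Hsp70 of the matrix that also pulls in imported proteins, and Trap1, the Hsp90 of the organelle. The other 6 encode proteases or their subunits: Clpp and Clpx, the protease and the ATPase of the ClpXP complex, Lonp1, the Lon protease of the matrix, Afg3l2 and Spg7 (paraplegin), subunits of the m-AAA protease of the inner membrane, and Htra2, a serine protease of the intermembrane space. In mammalian cells, transcripts of several of these genes are known to rise in the mitochondrial unfolded protein response, in which stress inside the organelle is signalled to the nucleus through factors such as Atf4, Atf5 and Ddit3 (CHOP).

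The zinc-finger factor Zbtb11 was removed from mouse embryonic stem cells (ESCs) of the E14 line, and the levels of the 10 genes were compared with controls by RNA-seq in 3 groups of 3 libraries. Zbtb11 KO cells were Zbtb11 lox/lox cells with ERt2-Cre in the Rosa26 locus, treated for 48 h with 250 nM 4-hydroxytamoxifen (4OHT). The EtOH control was the same line given ethanol, and the 4OHT control was a Zbtb11 WT/WT, Rosa26 WT line given 250 nM 4OHT, so genotype, cell line and treatment all differ between the controls and cannot be told apart. The deletion removes exon 3, and all lox/lox cells derive from a single inducible line. Binding of Zbtb11 was mapped by ChIP-seq in untreated E14 cells, with an antibody to FLAG in 3 libraries of Zbtb11 FLAG/FLAG cells and 2 libraries of WT control cells, and with an antibody to Zbtb11 in 4 libraries of WT cells.

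The RNA libraries held 14301457 to 23876604 reads on genes, and the 10 genes received between 152 reads (Htra2 in the 4OHT control, replicate 1) and 23097 reads (Hspd1 in the 4OHT control, replicate 3). Summed over 10 markers of ESCs (Pou5f1, Nanog, Sox2 and others), the level was 4545 to 5500 CPM (read counts scaled to library size, normalised by TMM) in the 9 libraries. The summed levels of 7 fibroblast markers were 19.9 to 37.4 CPM in the EtOH control, 22.3 to 41.3 in Zbtb11 KO cells and 20.7 to 40.3 in the 4OHT control, with Lum at 0 in all 9. Markers of endoderm (4.65 to 10.1 CPM) and mesoderm (3.09 to 5.24) were low in every library by the same measure. Neural markers summed to 69.5 to 132 CPM, most of it from Tubb3 (60.3 to 114 CPM). The deleted gene has no row of its own in the annotation, and its transcript belongs to the row of Rpl24, a ribosomal protein gene. That row stood at 371 ± 15.4 CPM in the EtOH control and 361 ± 3.10 CPM in Zbtb11 KO cells (SD, n = 3), so the deletion could not be followed in the counts.

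Zbtb11 peaks were found at the promoters of 4 of the 10 genes, Hspd1, Hspe1, Clpp and Afg3l2, when a promoter ran from 2 kb upstream to 500 bases downstream of the gene start and the consensus peaks shared by both antibodies were counted. Of the 14346 genes expressed highly enough to be tested, 28.1% had such a peak. With every peak of the Zbtb11 antibody the count was 5 of 10, with Htra2 added (33% of tested genes), and with every FLAG-Zbtb11 peak it was 4 of 10 (33.5% of tested genes). The FLAG control had no peak at any of the 10 promoters. Hspa9, Trap1, Clpx and Lonp1 had no peak within 5 kb upstream or 3.5 kb downstream of the start in any list.

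**Figure D1:**
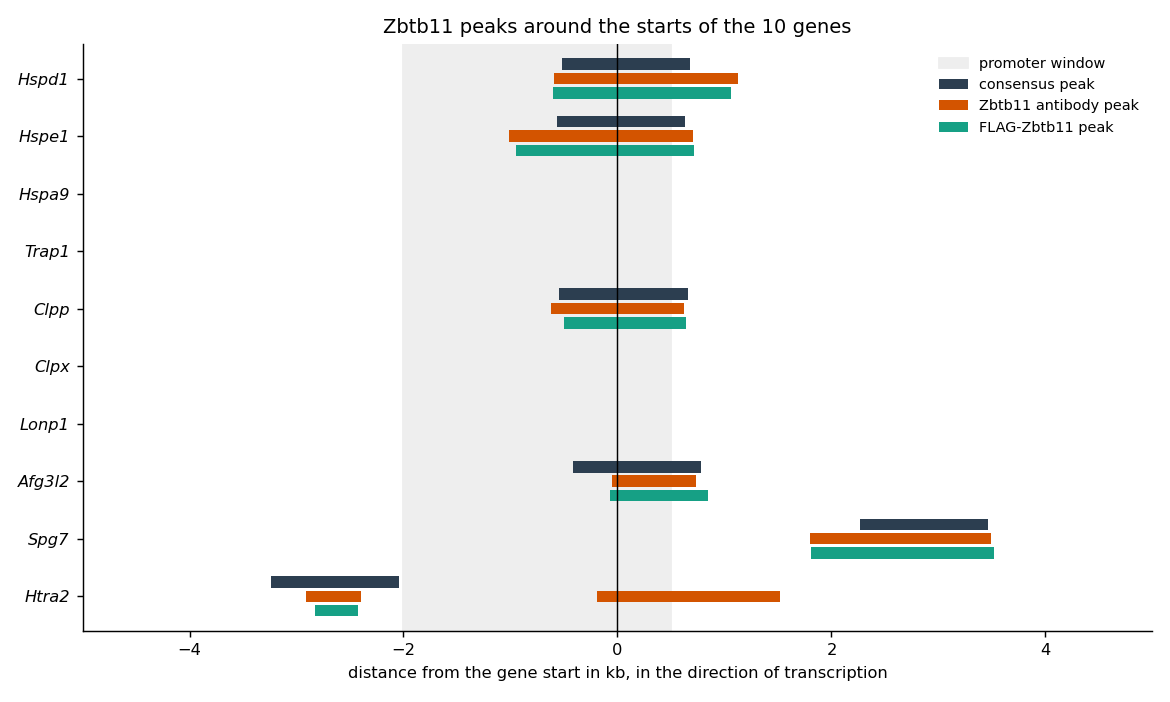
Position of Zbtb11 peaks around the annotated starts of the 10 genes. The x axis gives the distance from the start in kb, with transcription running to the right, the bars are peaks of the 3 lists, and the grey band is the promoter window. Hspd1, Hspe1, Clpp and Afg3l2 have peaks of all lists over the start, and Htra2 has only an antibody peak over its start. The peak of Spg7 lies downstream of the outermost start, beside starts of other annotated transcripts of the gene.

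The strongest of these peaks was shared by a pair of genes. Hspd1 (minus strand, chr1:55134679-55145087 of mm9) and Hspe1 (plus strand, chr1:55144976-55148151) lie head to head, and their annotated starts overlap by 112 bases of exon on opposite strands. One consensus peak of 1200 bases, with start 55144410 and end 55145610 in the deposited table, covered both starts. The 300 bases of mm9 printed first below, from chr1:55144773-55145072 on the plus strand, are centred midway between the start of Hspe1 and an annotated transcript start of Hspd1. They hold 70.3% G and C and 35 CpG sites. The capitals mark a heat shock element, the binding sequence of Hsf1 (GAANNTTC), at positions 136 to 143, which runs into the ETS motif bound by GABPA (CCGGAAG, searched on both strands), matched at position 140 on the minus strand and at 143 on the plus strand. The start of Clpp (plus strand, chr17:57129687-57135794) is shown next, 250 bases before to 50 bases after the start (chr17:57129437-57129736), with its ETS motif in capitals, as the other promoter with a peak above the median of the data set. Clpx (plus strand, chr9:65142067-65178465) is shown as a promoter without a peak (chr9:65141817-65142116), with a match to the NRF1 motif (GCATGCGC) in capitals.
Hspd1-Hspe1 shared promoter: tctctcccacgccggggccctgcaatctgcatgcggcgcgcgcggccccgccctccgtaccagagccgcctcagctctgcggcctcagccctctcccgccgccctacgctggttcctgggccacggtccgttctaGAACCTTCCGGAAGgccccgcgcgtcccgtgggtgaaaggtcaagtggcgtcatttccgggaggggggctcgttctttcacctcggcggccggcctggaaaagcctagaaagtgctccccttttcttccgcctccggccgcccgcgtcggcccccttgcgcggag
Clpp promoter: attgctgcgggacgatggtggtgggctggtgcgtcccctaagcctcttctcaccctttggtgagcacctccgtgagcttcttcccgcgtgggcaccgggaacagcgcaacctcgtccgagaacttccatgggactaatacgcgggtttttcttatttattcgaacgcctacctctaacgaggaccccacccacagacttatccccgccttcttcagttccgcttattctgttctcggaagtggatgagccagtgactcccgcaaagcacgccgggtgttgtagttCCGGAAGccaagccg
Clpx promoter: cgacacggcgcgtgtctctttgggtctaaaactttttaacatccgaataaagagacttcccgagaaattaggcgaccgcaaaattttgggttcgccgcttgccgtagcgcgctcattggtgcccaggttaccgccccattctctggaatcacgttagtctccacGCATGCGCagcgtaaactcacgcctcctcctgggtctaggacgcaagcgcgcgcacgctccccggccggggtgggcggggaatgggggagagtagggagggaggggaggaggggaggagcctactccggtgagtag

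In the window from 250 bases before to 50 after the annotated start, the ETS motif was matched in 2 of the 10 genes (Hspe1 and Clpp) and in 10.8% of 22367 protein-coding genes. The heat shock element was matched in Hspe1 and Hspa9 and in 7.56% of all promoters, and the NRF1 motif in Clpx alone and in 3.30% of all promoters. An ATF/CHOP element (TGATGCAA) and the cyclic AMP response element (TGACGTCA), searched as exactly these letters, were found in none of the 10 windows and in 0.827% and 2.32% of all promoters. Other forms of these elements were not searched. The GC box of Sp1 (GGGCGG), found in 6 of the 10, and the CCAAT box, found in 3, occurred in 43.4% and 37.9% of all promoters. The window of Hspd1 is set by its outermost start, so that the heat shock element and the ETS motif shown above fall outside it. These matches describe letters in a window and are not evidence of binding.

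Spg7 (plus strand, chr8:125586842-125621660) had a peak that the promoter rule missed. Its consensus peak (start 125589104, end 125590304) began 2263 bases after the annotated start, and 4 of its 12 annotated transcripts start within 500 bases of that peak, at 125589079 to 125589408. When the start of any annotated transcript was allowed, 5 of the 10 genes had a promoter peak, with Spg7 as the fifth (31.1% of tested genes). The 300 bases from 250 before to 50 after the internal start furthest downstream (chr8:125589158-125589457) are shown here because the peak lies over them. They hold 64.7% G and C and 36 CpG sites. No ETS, NRF1, heat shock, ATF/CHOP or cyclic AMP element was matched in them, so no letter is in capitals.
Spg7 internal start: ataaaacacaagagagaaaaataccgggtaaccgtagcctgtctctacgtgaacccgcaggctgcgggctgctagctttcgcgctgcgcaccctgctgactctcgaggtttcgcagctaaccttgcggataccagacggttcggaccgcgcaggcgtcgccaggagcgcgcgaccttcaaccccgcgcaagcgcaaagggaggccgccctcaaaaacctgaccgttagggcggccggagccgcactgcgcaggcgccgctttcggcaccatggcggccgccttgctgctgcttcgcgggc

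Coverage of the shared Hspd1-Hspe1 peak was 285, 287, 271 and 231 in the 4 Zbtb11 antibody libraries and 405, 380.2 and 265 in the 3 FLAG-Zbtb11 libraries (read coverage as normalised by the authors with DiffBind). Its antibody mean of 268 ± 26.1 (SD, n = 4) ranked it 994th of 7500 consensus peaks. It lay above the median of all peaks (71.3) but below the limit of 308.9, set at 1.5 interquartile ranges above the upper quartile, that 857 peaks exceeded. In the FLAG-Zbtb11 libraries its mean was 350.04 ± 74.96 (SD, n = 3), rank 610.

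The Clpp peak had coverages of 77.8, 119, 122.9 and 137 with the Zbtb11 antibody and 106, 43.9 and 90.6 with FLAG. Its antibody mean was 114 ± 25.3 (SD, n = 4, rank 2393), and the FLAG mean 80.2 ± 32.4 (SD, n = 3). All 4 antibody libraries lay above the median peak, with replicate 1 the lowest, while FLAG replicate 2 lay below that median, which is one of antibody means. The internal Spg7 peak stood between these, at 153, 160.3, 196 and 147 with the antibody and 176, 159 and 174 with FLAG. Its mean of 164 ± 21.6 (SD, n = 4) gave it rank 1672, and it was the most even of the 4 peaks across the FLAG libraries.

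Coverage over the start of Htra2 (minus strand, chr6:83001260-83005267) cannot be given, because only the Zbtb11 antibody called a peak there (chr6:83003745-83005456) and the coverage table lists consensus peaks alone. The nearest consensus peak (start 83007309, end 83008509) lay upstream of the promoter window. It had antibody coverages of 118 to 164 and FLAG coverages of 10.4 to 39.6, so that its rank was 1978 by the antibody and 7077 by FLAG. The starts of Htra2 and of Aup1, on the opposite strand, overlap, and Htra2 shares 463 exon bases with Aup1 and 535 with Loxl3. The libraries were directional, but whether counting took strand into account is not given in the sources used here. How reads of these shared exons were assigned is therefore uncertain for Htra2, as it is for the start shared by Hspd1 and Hspe1.

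The weakest peak, at the start of Afg3l2 (minus strand, chr18:67564421-67608820; peak start 67608037, end 67609237), had antibody coverages of 50.02, 1.60, 42.4 and 17.7 and FLAG coverages of 38.0, 74.6 and 49.3. Its antibody mean of 27.9 ± 22.3 (SD, n = 4) ranked it 6611th of 7500, and its FLAG mean of 53.9 ± 18.7 (SD, n = 3) ranked it 4495th. Antibody replicate 2 was close to 0 there, so the spread between libraries was nearly as large as the mean.

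**Figure D2:**
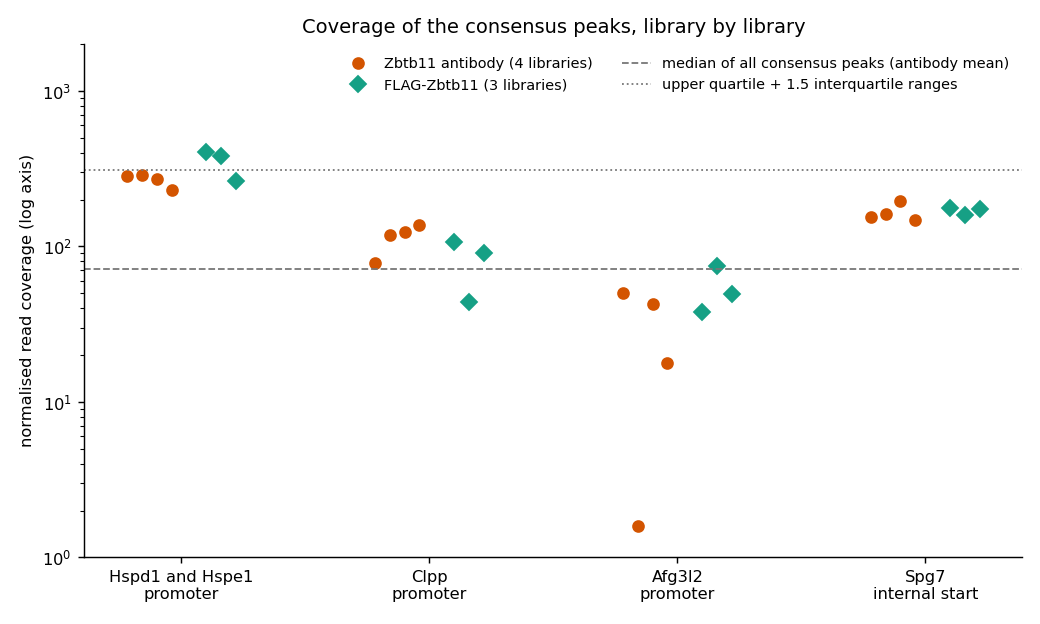
Normalised read coverage (log axis) of the consensus peaks at the promoters of Hspd1 and Hspe1, Clpp and Afg3l2 and at the internal start of Spg7. Each point is a library, 4 with the Zbtb11 antibody and 3 with FLAG. The dashed line is the median of all 7500 peaks and the dotted line the limit for outliers. Both lines come from the mean of the antibody libraries, without the FLAG libraries. The Hspd1-Hspe1 peak lies below the dotted line in all 4 antibody libraries and above it in 2 of 3 FLAG libraries.

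Chaperone transcripts were more abundant than those of the proteases. Per kb of annotated exon, the EtOH control mean was 282 ± 60.9 CPM for Hspd1, 221 ± 8.15 for Hspa9, 108 ± 14.9 for Hspe1 and 78.8 ± 4.42 for Trap1 (SD, n = 3), so the 4 chaperones stood above all 6 proteases. Among the proteases, Lonp1 came first with 55.8 ± 3.75 CPM per kb, followed by Clpp (38.9 ± 4.93), Afg3l2 (34.9 ± 1.13), Spg7 (12.4 ± 0.508), Clpx (11.5 ± 0.422) and Htra2 (3.95 ± 0.738). The libraries of Hspd1 and Hspa9, of Clpp and Afg3l2, and of Spg7 and Clpx overlapped, so the order within these pairs does not exceed the spread. The proteolytic subunit Clpp was thus more abundant per kb than its ATPase partner Clpx, and Afg3l2 more abundant than its m-AAA partner Spg7.

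Exon lengths add up all annotated transcripts, and some reads may belong elsewhere. Near-identical stretches (at least 100 bases at 95% identity) at 3 other places in mm9 cover 84.6% of the exon bases of Hspd1, and stretches at 4 other places cover 36.4% of those of Hspe1. For Hspa9 and Clpx such copies cover 12.3% and 8.93%, and the other 6 genes have none. Levels of Hspd1 and Hspe1 are therefore uncertain to the extent that reads could be placed on a copy.

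Zbtb11 KO and EtOH control libraries overlapped at all 10 genes. None of the 10 passed the threshold (adjusted p under 0.05, edgeR) in Zbtb11 KO against EtOH control, where 0.899% of the tested genes did, most of them lower. No member had an unadjusted p under 0.05, and DESeq2 also called none. Log2 fold changes ran from -0.06 (Spg7) to 0.07 (Htra2), with a median of 0.0047 beside -0.0006 over all tested genes. In none of the 10 were the 3 KO libraries separated from the 3 EtOH libraries, an event seen in 7.21% of tested genes. In bulk RNA, fewer cells with a transcript and less of it per cell cannot be told apart.

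Hspd1, the most abundant member with a promoter peak, gave 560.4, 840.3 and 838 CPM in replicates 1 to 3 of the EtOH control. The matching Zbtb11 KO libraries gave 595, 798 and 896 CPM. The groups overlapped, replicate 1 was lowest in each, and the log2 fold change was 0.03 with a 95% interval from -0.52 to 0.59. Hspe1 read 133, 173 and 169.7 CPM in the EtOH control against 139, 165 and 171 CPM in Zbtb11 KO, with group means of 158 CPM each and an interval from -0.35 to 0.34. The balance between these partners also overlapped between the groups. Per kb, the Hspd1 to Hspe1 ratio was 2.35, 2.72 and 2.76 in EtOH control libraries, beside 2.38, 2.69 and 2.93 in those of Zbtb11 KO.

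At the other bound genes the groups overlapped as well. Clpp read 40.1, 49.9 and 50.8 CPM in the EtOH control and 38.2, 47.7 and 50.7 CPM in Zbtb11 KO, lower in all 3 pairs of the same replicate number but by 0.07 or less on the log2 scale. Its log2 fold change was -0.04, with an interval from -0.37 to 0.28. Afg3l2 read 109, 110.5 and 104 CPM against 104, 112 and 119 CPM (log2 fold change 0.05, interval -0.12 to 0.22). Spg7, bound at its internal start, read 53.7, 52.2 and 49.5 CPM against 52.8, 47.1 and 49.7 CPM (-0.06, interval -0.29 to 0.18).

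Members without a consensus peak at the start showed differences of similar size. Hspa9 read 837, 901 and 871 CPM in the EtOH control and 829.9, 836 and 851 CPM in Zbtb11 KO. It was lower in all 3 replicates, with a log2 fold change of -0.05 (interval -0.22 to 0.12). Trap1, Clpx and Lonp1 had log2 fold changes of -0.01, 0.07 and 0.0096, each with an interval that included 0. For Htra2, the lowest member, KO libraries at 10.1, 11.5 and 12.9 CPM overlapped EtOH libraries at 8.65, 12.6 and 11.5 CPM, and the interval ran from -0.41 to 0.55.

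How narrow these limits are depends on the replicate number, because libraries with the same number varied together. With the number as a block, which called 2.25% of tested genes, the count of members stayed at 0 of 10. The 95% intervals of the 10 genes then lay between -0.19 and 0.30, that of Hspd1 being -0.10 to 0.17 and that of Hspe1 -0.12 to 0.12. All 10 of these intervals included 0.

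A comparison with other genes bound to the same degree puts the shared peak in context. Of 352 other tested genes with a promoter peak of like coverage (the lower at least 0.8 times the higher) to that of Hspd1 and Hspe1, 2 (0.568%) were called in Zbtb11 KO against EtOH control, each lower, and with the block 3 were lower and 1 higher (1.14%). Among 680 genes with a peak like that of Clpp, 2 were called (0.294%), also lower, and with the block 2 lower and 1 higher. Among 216 with one like that of Afg3l2, 0 were called by edgeR without the block and 2 with it, both lower. Over all tested genes the shares called were 0.899% without the block and 2.25% with it.

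**Figure D3:**
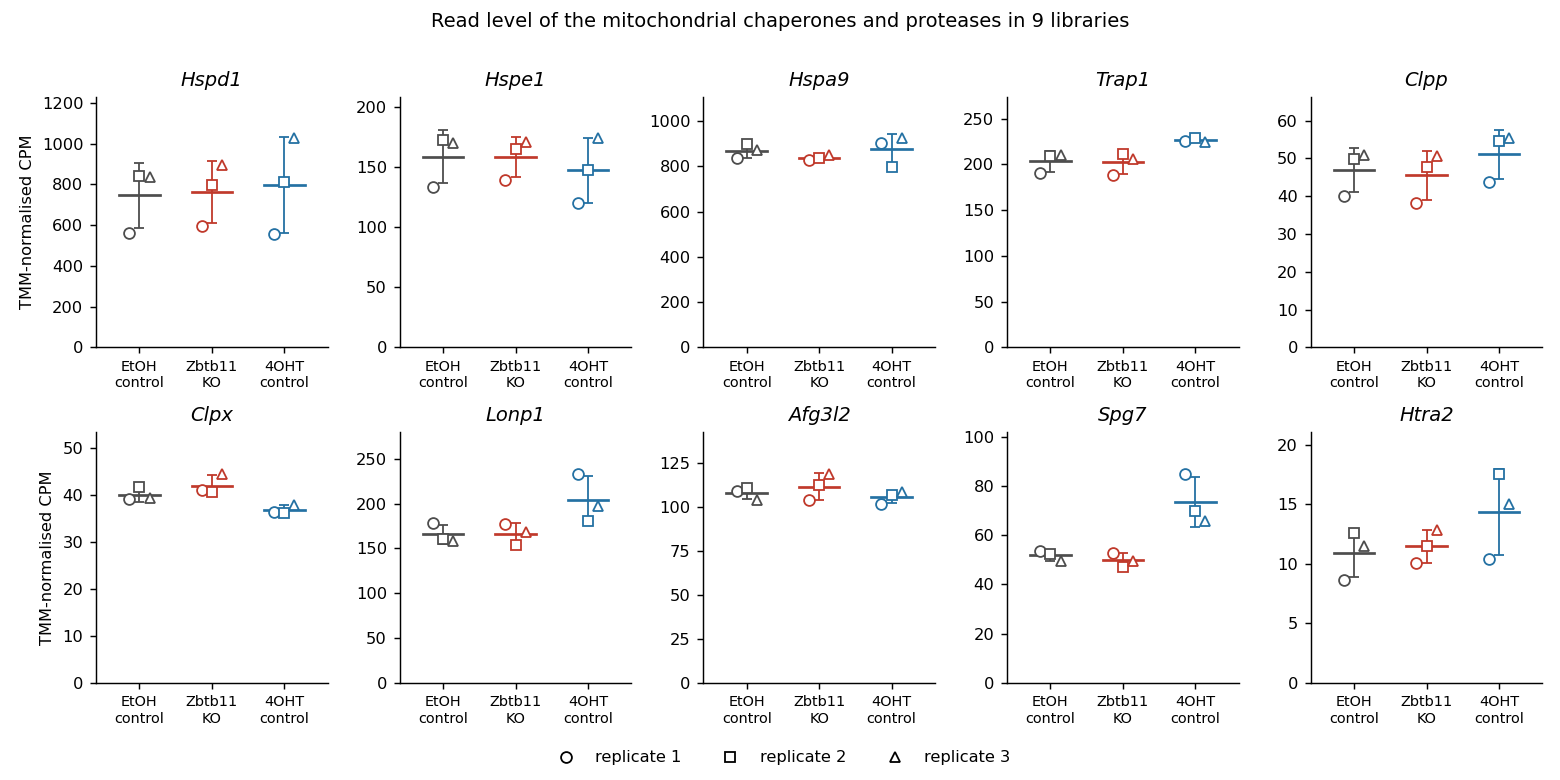
Level of the 10 genes in TMM-normalised CPM in each of the 9 RNA-seq libraries. Points are libraries with a symbol for each replicate number, horizontal lines are group means and error bars the SD (n = 3). EtOH control and Zbtb11 KO libraries overlap for every gene, and Spg7 is higher in the 4OHT control (65.7 to 85.03 CPM) than in either (47.1 to 53.7 CPM).

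The replicate number itself moved 6 of the 10 genes, where it moved 55.9% of all tested genes (edgeR, test over the 3 numbers with group in the model). Hspd1 was 0.52 higher in replicate 2 than in replicate 1 on the log2 scale (SE 0.0648) and 0.69 higher in replicate 3 (SE 0.0649, adjusted p = 1.09e-07 over all numbers). Hspe1 rose in the same direction by 0.30 and 0.39 (adjusted p = 2.36e-05), Clpp by 0.32 and 0.36 (4.37e-05) and Htra2 by 0.50 and 0.43 (0.00124). Lonp1 and Spg7 went the other way, with log2 differences of -0.24 and -0.16 for Lonp1 (adjusted p = 0.0023) and of -0.17 and -0.20 for Spg7 (0.0246). Hspa9, Trap1, Clpx and Afg3l2 did not pass this test. Between replicates 2 and 3 the log2 difference of Hspd1 was 0.17 (SE 0.0643), so most of its spread lay between replicate 1 and the others. What sets replicate 1 apart is not given in the labels. The paper's methods describe a distant replicate in all sample groups, without giving its number, and propose that technical variability may underlie it. The authors' final gene list came from a fit without that replicate, whereas the main fit here keeps all replicates.

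The 4OHT control differed from the EtOH control at 1 of the 10 genes, Spg7, where 4.06% of all tested genes were called. Spg7 read 53.7, 52.2 and 49.5 CPM in the EtOH control and 85.03, 69.8 and 65.7 CPM in the 4OHT control, without overlap. Its log2 fold change was 0.50 ± 0.11 (SE, edgeR adjusted p = 0.0333), a level 1.42 times higher. The call was lost when only these groups were fitted (edgeR adjusted p = 0.100), without replicate 2 of every group (0.545) and without replicate 3 (0.323). Against the same 4OHT libraries, Spg7 in Zbtb11 KO gave -0.56 ± 0.11 (SE, adjusted p = 0.0149) and was again the only member called, where 6.45% of tested genes were. That call was lost in the same settings (edgeR adjusted p = 0.0503, 0.369 and 0.169). As these comparisons share their 4OHT libraries, the second is not independent of the first.

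The difference at Spg7 was shared by its chromosome. Over the 758 tested genes of chromosome 8, the median log2 fold change between the 4OHT and EtOH controls was 0.26, and 85.5% of them were above 0. On the other autosomes and the X chromosome the medians lay between -0.18 and 0.02. Within 1 Mb of Spg7, 35 of 41 other tested genes were higher in the 4OHT control, with a median of 0.29, and within 5 Mb it was 90 of 101, with a median of 0.32. The chromosome 8 median was above 0 in each replicate number, at 0.25, 0.23 and 0.21, beside 0.66, 0.42 and 0.41 for Spg7. In Zbtb11 KO against the EtOH control, which are the same line, the median of chromosome 8 was -0.0005. Of the 758 genes, 133 (17.5%) rose at least as far as Spg7. How much of the difference at Spg7 belongs to its chromosome was not tested.

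**Figure D4:**
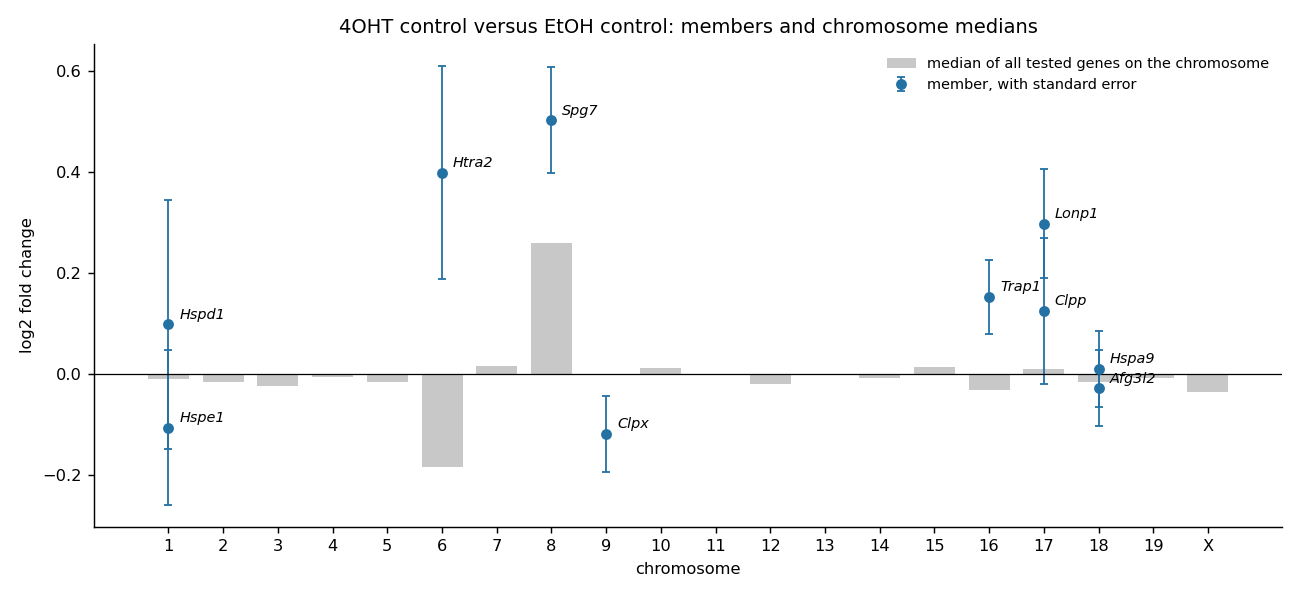
Log2 fold change of the 4OHT control over the EtOH control by chromosome. Grey bars are the medians of all tested genes on a chromosome, and points are the 10 genes with their standard error (edgeR, n = 3 per group). Chromosome 8 stands above the others at 0.26, with Spg7 at 0.50, and chromosome 6 lies at -0.18, with Htra2 at 0.40.

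With the replicate number as a block, 4 of the 10 genes were higher in the 4OHT control than in the EtOH control and none lower, where 33.6% of tested genes were called. Besides Spg7 (log2 fold change 0.49, adjusted p = 5.26e-06) these were Lonp1 at 0.29 ± 0.05 (adjusted p = 0.000361), Htra2 at 0.40 ± 0.10 (0.00595) and Trap1 at 0.15 ± 0.05 (SE, 0.0261). Without the block their adjusted p values were 0.180 for Lonp1, 0.380 for Htra2 and 0.329 for Trap1. A share of 4 in 10 is close to that of all genes.

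In libraries, Lonp1 read 178, 160.2 and 158 CPM in the EtOH control and 233, 180.2 and 197 CPM in the 4OHT control. The groups did not overlap, though EtOH replicate 1 came close to 4OHT replicate 2. Trap1, at 190.4, 209.8 and 211 CPM against 225, 228 and 225 CPM, was also separated, as was Clpx in the other direction (39.0, 41.7 and 39.3 against 36.4, 36.2 and 37.9 CPM). Together with Spg7 this made 4 of 10 genes without overlap, beside 21.7% of tested genes. Neighbours of Lonp1 and Trap1 within 1 Mb had medians of 0.06 and -0.06, and those of Htra2, on chromosome 6, a median of 0.06.

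Between Zbtb11 KO and the 4OHT control the same 4 genes were without overlap (22.9% of tested genes). The blocked fit called 6 of the 10 (34.9% of tested genes): Spg7 (-0.55), Htra2 (-0.32), Lonp1 (-0.28), Clpp (-0.17) and Trap1 (-0.16) lower, and Clpx (0.19) higher in Zbtb11 KO. The 4 genes called in both blocked comparisons (Spg7, Lonp1, Htra2 and Trap1) had log2 fold changes of -0.06 to 0.07 between Zbtb11 KO and the EtOH control, which are the same cell line. Both comparisons use the same 4OHT libraries.

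The Hspd1 to Hspe1 ratio per kb was 2.58, 3.08 and 3.29 in the 4OHT control, with a mean of 2.99 ± 0.366 (SD, n = 3), against 2.61 ± 0.226 in the EtOH control and 2.67 ± 0.273 in Zbtb11 KO. In pairs of the same replicate number, the log2 ratio was higher in the 4OHT control than in the EtOH control by 0.14, 0.18 and 0.26, in 3 of 3 pairs, and Zbtb11 KO differed from the 4OHT control by -0.12, -0.19 and -0.17, lower in 3 of 3. None of the 3 pairs of groups passed the threshold in an exact permutation test on the log2 ratio (two-sided p = 0.8 for KO against EtOH, 0.3 for each pair with the 4OHT control; adjusted over the 3 pairs 0.8, 0.45 and 0.45), and groups of 3 cannot reach a p below 0.1. Permuted within replicate pairs, the exact two-sided p was 0.5 for Zbtb11 KO against EtOH control and 0.25 for each comparison with the 4OHT control, the smallest that 3 pairs can give.

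**Figure D5:**
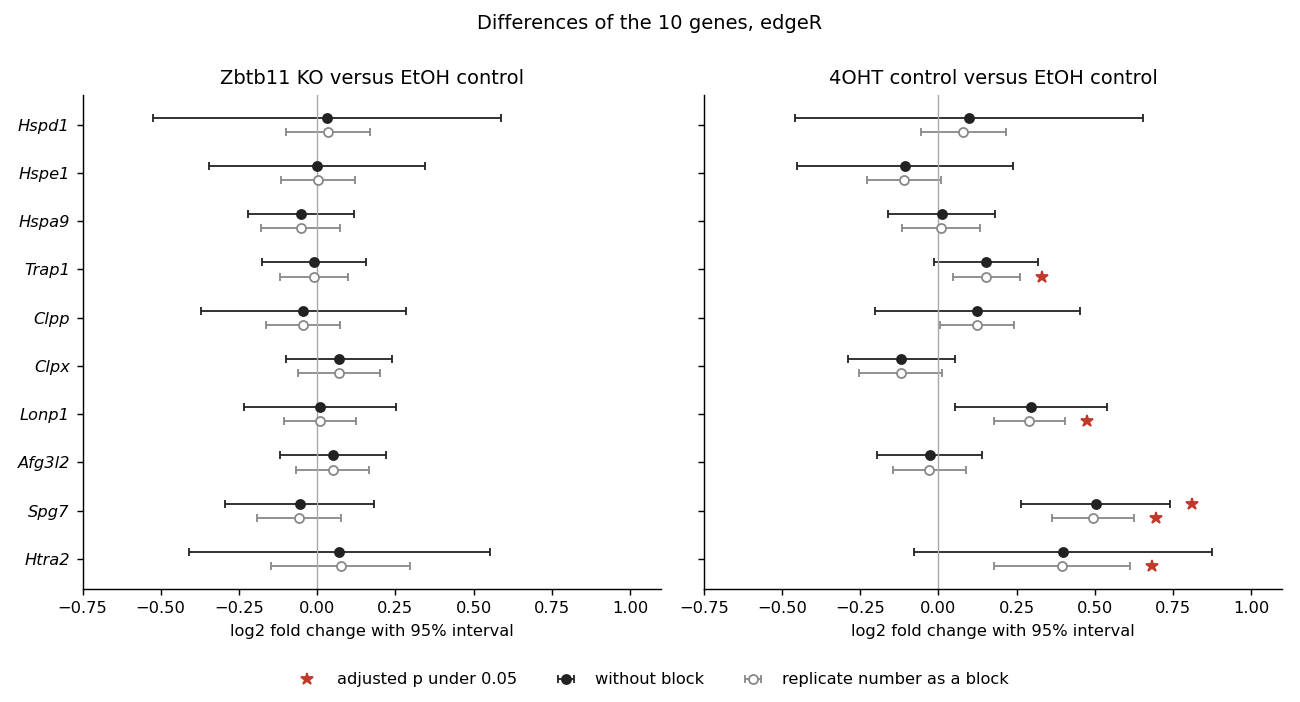
Log2 fold changes of the 10 genes with 95% intervals (edgeR), for Zbtb11 KO and for the 4OHT control, each against the EtOH control. Filled points are the fit without a block, open points the fit with the replicate number as a block, and stars mark an adjusted p under 0.05. All intervals on the left include 0, and on the right Spg7 is called in each fit and Trap1, Lonp1 and Htra2 with the block alone.

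Other chaperones and proteases of the organelle gave no call on removal of Zbtb11 either, where 0.899% of tested genes were called (2.25% with the block). Among 15 further mitochondrial chaperones and co-chaperones, 0 were called in Zbtb11 KO against EtOH control with a median log2 fold change of 0.0061, and among 13 tested proteases 0, with a median of 0.003 (edgeR; none had an unadjusted p under 0.05, and DESeq2 and the block also called 0). Promoter peaks were found at 6 of the 15 and at 8 of the 13, beside 28.1% of tested genes. In 5 of the 6 chaperone genes and 1 of the 8 protease genes the peak exceeded the limit of 308.9, which none of the 10 members did. Of all 7500 consensus peaks, 857 exceeded it. Grpel2, the nucleotide exchange factor that serves Hspa9, had a coverage of 519 and read 46.2, 40.0 and 36.9 CPM in the EtOH control against 39.7, 33.6 and 32.1 CPM in Zbtb11 KO. It was lower in each replicate, with a log2 fold change of -0.23 (adjusted p = 1 without and 0.0869 with the block). The deubiquitinase Usp30, whose peak had a coverage of 772, had a log2 fold change of -0.18 (adjusted p = 1 and 0.489). Log2 fold changes were -0.15 for Dnajc15, 0.15 for Pam16, -0.15 for Hscb, -0.10 for Immp2l, 0.10 for the inner-membrane protease Oma1 and 0.06 for Afg3l1, a further m-AAA subunit. Immp2l had only 27 to 61 reads per library in these groups.

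Regulators and readouts of the mitochondrial stress response were tested in 19 of 20 genes. None was called in Zbtb11 KO against EtOH control by edgeR without the block, where 0.899% of all tested genes were, or by DESeq2. At an unadjusted p under 0.05 these fits held 0. With the block, where 2.25% of all tested genes were called, 1 of the 19 was, Atf5, a factor that drives the response in mammalian cells. Atf5 read 12.8, 19.1 and 17.3 CPM in the EtOH control and 18.7, 23.2 and 23.2 CPM in Zbtb11 KO, higher in each replicate. The groups overlapped, and the log2 fold change was 0.40 ± 0.09 with the block (SE, adjusted p = 0.0146) and 0.40 ± 0.20 without (adjusted p = 1). In the 4OHT control, Atf5 read 16.3, 20.2 and 25.4 CPM, also higher than the EtOH control in each replicate. Its log2 fold change there was 0.33 (edgeR adjusted p = 0.00892 with the block and 0.435 without). Between Zbtb11 KO and the 4OHT control the log2 fold change of Atf5 was 0.07 (adjusted p = 0.565 with the block). The cause of these differences in Atf5 was not tested, since effects of line, genotype and treatment are mixed in the 4OHT control. Txn2, the mitochondrial thioredoxin, had a promoter peak with a coverage of 882 and a log2 fold change of 0.24 (adjusted p = 1, and 0.0725 with the block). For Sirt3 and Gdf15 the values were -0.22 and 0.20. The list had a median of -0.04. Promoter peaks were found at 4 of its 19 tested genes, beside 28.1% of all tested genes.

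Chaperones of other compartments gave no call in Zbtb11 KO against EtOH control, 0 of 20 cytosolic and 0 of 15 of the endoplasmic reticulum (edgeR with or without the block, and DESeq2). Without the block, 0 had an unadjusted p under 0.05. Of all tested genes, 0.899% were called without the block and 2.25% with it. The largest cytosolic values were 0.37 for Hspa1a, 0.25 for Hspa1b, 0.13 for Hspb1 and 0.12 for Hspa2, and the largest of the reticulum were -0.10 for Dnajb9, 0.07 for Pdia3, 0.06 for Sdf2l1 and -0.06 for Xbp1. Hspa1a read only 0.555 to 1.62 CPM in these groups (12 to 33 reads per library), and Hspa1b 3.55 to 5.51 CPM. Promoter peaks were found at 10 of the 20 cytosolic and 3 of the 15 reticulum genes, beside 28.1% of tested genes.

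In the 4OHT control against the EtOH control the wider lists held larger differences than the 10 members. The prohibitin Phb2 stood at 251 ± 34.3 CPM in the 4OHT control and 427 ± 76.4 CPM in the EtOH control (SD, n = 3), a log2 fold change of -0.77 (adjusted p = 0.0429), and the import factor Tomm34 at 68.3 ± 8.32 against 118 ± 8.41 CPM (-0.79, adjusted p = 0.00506). The inducible cytosolic Hsp70 gene Hspa1b, at 5.83 to 8.44 against 3.70 to 4.15 CPM, was 0.88 higher (adjusted p = 0.0479). These were the 3 genes of the chaperone, protease and stress lists that were called without the block, where 4.06% of all tested genes were, and Phb2 and Tomm34 are named after their values were seen. With the block, where 33.6% of all tested genes were called, the calls were 8 of 15 mitochondrial chaperones and co-chaperones (all lower), 7 of 13 proteases (3 higher, 4 lower), 7 of 19 stress genes (2 higher, 5 lower), 8 of 20 cytosolic chaperones (6 higher, 2 lower) and 5 of 15 of the endoplasmic reticulum (4 higher, 1 lower). Phb2 shared its difference with its neighbours on chromosome 6: the other 99 tested genes within 5 Mb had a median of -0.51, and 8 of them were above 0. The 93 genes within 5 Mb of Tomm34 had a median of 0.12, and the 180 near Hspa1b one of 0.04. Afg3l1, which lies on chromosome 8 like Spg7, gave 0.36 (adjusted p = 0.0681, and 7.28e-05 with the block) where its neighbours within 1 Mb had a median of 0.35.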

How the data were processed

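RNA-seq was analysed in 9 libraries and ChIP-seq in 9. The authors deposited raw counts per gene: HTSeq counted STAR alignments of directional, rRNA-depleted libraries, after TrimGalore and PRINSEQ had cleaned the reads. The read coverage (signal) of consensus peaks was normalised and deposited by the authors with DiffBind, after Cutadapt, Bowtie 1.1.2 on mm9, Picard and MACS2 within the IDR pipeline. The deposited peak lists hold positions pooled over replicates, and the coordinates printed from the coverage table are as deposited, since the source does not give whether they count from 0 or 1. Input libraries were not used here.

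The tested genes passed 1 CPM in 3 or more libraries (2 where a replicate was left out), and the test was run with edgeR 4.0.16 in R 4.3.3 (TMM, quasi-likelihood F test, legacy form, the 3 groups in one fit). Benjamini-Hochberg adjustment covered every tested gene, and 95% intervals use the t quantile of the fit. Replicates were taken as the labels give them, and p values set group differences against the spread between them. In the blocked fit, differences between replicate numbers are first taken out of that spread. Same-numbered libraries deviated together from their group means (correlation 0.43 to 0.82 over 9 pairs), and the number was taken to pair them. Libraries of different numbers gave -0.753 to 0.526 over 18 pairs. EtOH replicate 2 followed 4OHT replicate 3 (0.526) more closely than 4OHT replicate 2 (0.43). Replicate 1 was thus set apart, but the pairing of replicates 2 and 3 by number is uncertain. The blocked fit is given where it changes a call of a member or moves a count by over 1.5 times. DESeq2 1.42.0 was an alternative. The edgeR fit was tested on simulated data. Near-identical copies were searched with blastn 2.17.0, and gene models and starts are those of the GENCODE annotation for mm9.

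The genes named are all 10 members and, of each wider list, those called in Zbtb11 KO against EtOH control or else the 4 with the largest log2 fold change. Members and lists were chosen with earlier results of these data known. Chromosome and neighbour medians, and the genes with like coverage, were added after seeing the data.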

Additional observations from a re-analysis of the deposited data

How the results depend on the processing

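Neither DESeq2, its size factors in edgeR, no filter, the 2 groups alone, the block, nor any left-out replicate called a member in Zbtb11 KO against EtOH control. Counts over all genes moved far more. For Zbtb11 KO against EtOH control 129 genes were called, 323 with the replicate block, 322 with the block and without replicate number 1 (added after seeing the data) and 13 to 212 with a replicate left out. For 4OHT against EtOH control 583 genes were called, 1036 by DESeq2, 171 with only the 2 groups, 4816 with the replicate block, 3914 with the block without replicate number 1 and 13 to 2420 with a replicate left out. For Zbtb11 KO against 4OHT control 925 were called, 570 with only the 2 groups, 5010 with the replicate block, 4174 with the block without replicate number 1 and 82 to 2645 with a replicate left out. With the block alone, Atf5 was also called in Zbtb11 KO against EtOH control. Between the 4OHT and EtOH controls, Atf5, Afg3l1 and further genes of the wider lists were called with the block alone.

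Of the 10 members, 1 was called between the 4OHT and EtOH controls, 0 with only the 2 groups, 4 with the replicate block, 3 with the block without replicate number 1 and 0 to 3 with a replicate left out. Between Zbtb11 KO and 4OHT control it was 1, 0 with only the 2 groups, 6 with the replicate block, 3 with the block without replicate number 1 and 0 to 3 with a replicate left out. The 3 are Spg7, Lonp1 and Htra2, found without replicate 1, and the 0 holds without replicate 2 or 3.

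Signs turned only where the log2 fold change of the edgeR fit without the block was smaller than its SE. The largest such value was 0.0982 (SE 0.2459), for Hspd1 between the 4OHT and EtOH controls. In Zbtb11 KO against EtOH control, Hspe1 was 0.0019 without the filter and 0.0027 with the replicate block, and leaving out a replicate gave -0.0088 to 0.0898 (Hspd1), -0.0282 to 0.0319 (Hspe1), -0.0324 to 0.0391 (Lonp1) and -0.0235 to 0.1052 (Afg3l2). Between the 4OHT and EtOH controls, Hspd1 gave -0.0324 to 0.1778, Hspa9 -0.0373 to 0.0973 and Afg3l2 -0.0749 to 0.01 with a replicate left out, and Hspa9 -0.0398 and Afg3l2 0.0099 with the block without replicate number 1. Hspd1 in Zbtb11 KO against 4OHT control gave -0.1255 to 0.0236 with a replicate left out. The cause of these turns was not tested. The mean difference in the Hspd1 to Hspe1 ratio kept its direction throughout. The paired permutation, chosen after seeing the data, uses the same mean difference and so could not change that direction. Between Zbtb11 KO and EtOH control the pairs themselves were mixed, at 0.0214, -0.0127 and 0.0866 in replicates 1 to 3. The FLAG libraries moved the coverage of the Hspd1-Hspe1 peak from 268 to 350.04 (303 over all 7), of Clpp from 114 to 80.2 and of Afg3l2 from 27.9 to 53.9.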
